A study of Mus musculus with 20 samples.

Results

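The probes described here have no gene name on the array. Each is named by a mouse genome interval and a strand, F for forward and R for reverse (for example chr13:19611679-19620954_R), and the array's own description calls every one of them a lincRNA, a long intergenic noncoding RNA. Of 55681 probes that were not controls, 16181 carried such a name and 15604 of these lay on autosomes. Chromosome 8 and an interval of chromosome 12, with 1085 probes together, were left out. Of the 14519 that remained, 8701 (59.9%) gave a signal well above background, by the scanner software's own flag, on at least 4 of 20 arrays. These 8701 probes are the members. They cover 3424 interval-and-strand names in 1715 separate loci, with 4191 forward and 4510 reverse probes. The intervals had a median length of 11638 bp (67 to 538251 bp) in the mm9 build.

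RNA came from 10 mouse pluripotent cell lines, each hybridised to 2 single-colour (Cy3) Agilent arrays. Of these, 7 were induced pluripotent stem cell (iPSC) lines, which are somatic cells returned to a pluripotent state by transcription factors, and 3 were embryonic stem cell (ESC) lines. OSKM stands for Oct4, Sox2, Klf4 and c-Myc, and SNEL for Sall4, Nanog, Esrrb and Lin28. In the labels, KH2_OSKM, Nanog-GFP OSKM#2 and also Oct4-GFP OSKM#2 are of poor quality, Nanog-GFP SNEL#3 and BC_2 OSKM of good quality, and Oct4-GFP SNEL#1 and Nanog-GFP SNEL#2 of high quality. The ESC controls are Oct4-GFP ESCs, Nanog-GFP ESCs and KH2 ESCs. Nanog-GFP and Oct4-GFP name fluorescent reporters of pluripotency genes, and KH2 is a mouse ESC line. All cells were kept without feeders in 2i, a medium with inhibitors of MEK and GSK3 that holds mouse cells in the naive state, and no line received another treatment. The labels give no strain, age, sex or passage, and do not say how quality was graded. Nanog-GFP SNEL#2 and Nanog-GFP SNEL#3 share reporter and factor set, and the labels do not say how they are related. Every other combination of reporter or origin with a factor set has a single iPSC line. Genetic background, factor set and grade are partly shared between lines and cannot be told apart line by line. Whether a line's 2 arrays hold RNA of different cultures is not said in the labels. P-values between lines therefore measure only the spread between arrays, which may be technical.

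A lincRNA is transcribed by RNA polymerase II from DNA between protein-coding genes and is usually capped, spliced and polyadenylated without being translated. Such RNAs are known for low levels and for expression in few cell types, and several act in the nucleus on chromatin, on splicing or as scaffolds of nuclear bodies. In mouse ESCs, some lincRNAs are bound and driven by the pluripotency factors, and reprogrammed lines are known to differ from each other at a number of noncoding loci. Many catalogued intervals came from chromatin marks, which do not tell the strand, and arrays of this type often carry probes for both strands. The probe sequences show directly which strand each probe reads.

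The probes that carry the results are printed here as the scanner files give them, 60 bases each, 5′ to 3′ in the sense of the RNA named. Capitals mark the bases that are exactly complementary to a probe for the opposite strand. A sequence wholly in lower case has no such partner, or is shown for its own level. The first set belongs to 2 loci of chromosome 13 with probes that were clearly on in some lines and not above background in others, each with its opposite-strand partner where the array has one. The probes lie at chr13:19617464-19617523 (R), chr13:19617480-19617539 (F), chr13:31760415-31760474 (R), chr13:31775719-31775778 (F) and chr13:31775693-31775752 (R).
A_30_P01024282, chromosome 13, reverse: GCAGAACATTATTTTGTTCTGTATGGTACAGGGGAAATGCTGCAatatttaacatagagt
A_30_P01032540, chromosome 13, forward: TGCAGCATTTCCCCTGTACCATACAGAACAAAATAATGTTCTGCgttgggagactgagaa
A_30_P01030974, chromosome 13, reverse: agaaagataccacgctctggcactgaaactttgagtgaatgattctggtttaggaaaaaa
A_30_P01022071, chromosome 13, forward: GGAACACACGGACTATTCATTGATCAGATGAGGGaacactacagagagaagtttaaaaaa
A_30_P01026963, chromosome 13, reverse: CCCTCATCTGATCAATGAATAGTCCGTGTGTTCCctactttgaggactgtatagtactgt

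The second set shows further intervals that differed widely between lines: a pair of overlapping chromosome 17 intervals (probes at chr17:22335459-22335518 and chr17:22422619-22422678) and an interval of chromosome 12 (chr12:73790095-73790154).
A_30_P01030657, chromosome 17, reverse: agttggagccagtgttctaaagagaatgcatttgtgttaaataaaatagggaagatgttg
A_30_P01031943, chromosome 17, reverse: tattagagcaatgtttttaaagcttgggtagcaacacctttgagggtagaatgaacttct
A_30_P01029263, chromosome 12, forward: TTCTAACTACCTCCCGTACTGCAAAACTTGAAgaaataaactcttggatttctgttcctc

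The third set holds pairs of probes that read the same stretch of DNA on opposite strands, at chr14:67588801-67588860, chr9:68357977-68358043, chr17:35087526-35087591 and chr5:35976912-35976997. They are shown because the pairs behaved in different ways, given below.
A_30_P01028444, chromosome 14, forward: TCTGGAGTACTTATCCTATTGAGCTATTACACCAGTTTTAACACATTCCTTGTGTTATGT
A_30_P01024021, chromosome 14, reverse: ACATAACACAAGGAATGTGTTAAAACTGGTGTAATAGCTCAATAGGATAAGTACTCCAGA
A_30_P01033149, chromosome 9, forward: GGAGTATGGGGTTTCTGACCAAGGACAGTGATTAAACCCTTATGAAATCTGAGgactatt
A_30_P01030724, chromosome 9, reverse: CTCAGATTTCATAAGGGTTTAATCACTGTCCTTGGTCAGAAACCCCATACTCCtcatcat
A_30_P01031189, chromosome 17, forward: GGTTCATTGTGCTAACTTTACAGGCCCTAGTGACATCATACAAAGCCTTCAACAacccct
A_30_P01017723, chromosome 17, reverse: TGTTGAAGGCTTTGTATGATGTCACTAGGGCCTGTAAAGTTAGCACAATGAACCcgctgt
A_30_P01024606, chromosome 5, forward: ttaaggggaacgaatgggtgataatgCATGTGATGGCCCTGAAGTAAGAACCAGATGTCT
A_30_P01032382, chromosome 5, reverse: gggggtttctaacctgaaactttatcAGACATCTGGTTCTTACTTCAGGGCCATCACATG

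Some arrays stood apart and touch every count below. On KH2_OSKM replicate 1, 77.2% of all probes were well above background against 58.2% on its replicate 2, and the 2 arrays correlated at r = 0.876 over the members, against 0.928 to 0.963 for the arrays of the other lines. Oct4-GFP SNEL#1 replicate 1 had 47.8% of members above background and its replicate 2 had 91.5%. Over all 20 arrays the share of probes above background ran from 48.9% to 77.2%. Slide, the only batch in the files, held 8, 8 and 4 arrays and is partly shared with line. The labelled cell type was checked on the pluripotency markers Pou5f1, Sox2, Nanog, Zfp42 and Esrrb, each above background on 20 arrays; Nanog ran from 6.72 to 7.44 and Zfp42 from 4.09 to 6.68 over the lines. Levels throughout are log2 signals minus their array's 75th percentile, and a line's level is the mean of its 2 arrays. RNA was taken from whole cultures, so fewer cells that make a transcript and less of it per cell cannot be told apart.

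The members were faint. Their median level was -3.87, with quartiles of -5.10 and -2.25, and 8.98% lay above the 75th percentile of the array signal (a level above 0). Over the other 30052 probes that passed the same filter the median was -0.84 and 43.4% lay above 0. Of the members, 40.7% (3537) were above background on all 20 arrays, against 69.4% of the other probes. Below the filter, 2105 position-named probes were on 0 arrays and 3713 on 1 to 3. The edge of the filter was gradual: the 338 probes on exactly 4 arrays had a median level of -6.18 and the 512 on exactly 3 had -6.39. The median GC content was 45% for members and 43.3% for the probes below the filter. A member that passed through a few lines only had to be higher in those lines, so the shares of members on many or few arrays describe detection and not regulation.

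Detection differed between lines. The share of members above background on both arrays of a line was highest in Oct4-GFP ESCs (85.1%), Oct4-GFP OSKM#2 (83.3%) and Nanog-GFP ESCs (80.9%), and it was 75.6% in Nanog-GFP OSKM#2 and 72.8% in KH2 ESCs. It was 68.9% in BC_2 OSKM, 67.1% in KH2_OSKM and 64.4% in Nanog-GFP SNEL#2. The lowest share, 47.5%, was found in both Nanog-GFP SNEL#3 and Oct4-GFP SNEL#1. The other probes followed a like order, from 91.9% in Oct4-GFP OSKM#2 to 72.5% in Nanog-GFP SNEL#3. The 2 lines at 47.5% were not alike in their arrays: Nanog-GFP SNEL#3 had 52.1% and 57.6% of members above background on its arrays, whereas Oct4-GFP SNEL#1 had 47.8% and 91.5%. Over the members on all 20 arrays, the median level of a line ran from -1.93 in Oct4-GFP SNEL#1 to -1.61 in Nanog-GFP SNEL#2.

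Whether members differed between lines by more than the 2 arrays of a line was tested with limma's moderated F test on the 20 arrays, with p-values adjusted by Benjamini-Hochberg over all 38753 probes that passed the filter and a threshold of 0.05. Of the members, 2994 (34.4%) passed, in 1401 names and 873 loci. Over all probes tested the share was 58.6%. The share of members rose with the number of arrays on which they were detected. Among members on 4 to 7 arrays 13% passed, and on 8 to 13 arrays 17.8%. On 14 to 19 arrays the share was 26.7%, and among those on all 20 arrays it was 53.7%. For the other probes the same 4 classes gave 19.5%, 33.5%, 44.1% and 78.6%, and for all probes on 20 arrays 74.9%. The SD of the line levels had a median of 0.43 over members and 0.36 over the other probes, and over probes on 20 arrays 0.32 and 0.28. By chromosome, the share of members that passed ran from 27.5% on chromosome 7 to 42.5% on chromosome 2.

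Large differences were fewer. Of all members, 379 (4.36%) passed and had more than 8-fold between the highest and the lowest line, in 237 names and 199 loci. The share over all probes tested was 6.07%. Counted among probes that passed, these were 379 of 2994 members and 2352 of 22698 probes of all kinds. With every value raised to at least its array's lowest signal well above background (levels of -6.75 to -4.23), 226 (2.6%) had such a range, where all probes gave 4.24%. On the brightest probe of each name, 97 names had such a range. With normexp, a model-based background correction that adds an offset to every signal, 27 members had it, and 66 had it in the authors' deposited table. The line farthest from the others among the 379 was BC_2 OSKM for 89 members (66 times as the low line), KH2_OSKM for 60 (46 times as the high line) and Nanog-GFP OSKM#2 for 52 (33 times as the high line). These are shares of 23.5%, 15.8% and 13.7%, where other probes past the same test and range gave 18.3%, 13.2% and 11.6%. Nanog-GFP SNEL#3 was farthest for 45 (11.9%, other probes 19.1%), Nanog-GFP SNEL#2 for 40 (10.6%, other probes 7.96%), Oct4-GFP SNEL#1 for 29 (7.65%, other probes 12.2%) and Oct4-GFP OSKM#2 for 21 (5.54%, other probes 5.32%). The differences between these shares were not tested. The ESC lines were farthest for 7 (Oct4-GFP ESCs, 1.85%, other probes 2.43%), 11 (Nanog-GFP ESCs, 2.9%, other probes 2.84%) and 25 (KH2 ESCs, 6.6%, other probes 7.05%). In KH2 ESCs and Nanog-GFP ESCs this was mostly as the low line, 22 and 11 times. By the background flag, 3178 members were above background on both arrays of at least 1 line and on neither array of another. Of these 709 passed the test, and most did not. The counts describe detection, since the share of members above background ran from 47.8% to 93.5% between arrays. They were not taken over the other probes, so they do not set the members apart.

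The widest differences lay in 2 loci of chromosome 13 that went with each other (locus 1, chr13:19611679-19620954, and locus 2, chr13:31736054-31781679). In locus 1 the reverse probe A_30_P01024282 had levels of -7.49 in Nanog-GFP OSKM#2 and -7.30 in BC_2 OSKM, and was above background on no array of either. In the other OSKM lines it was -0.03 (Oct4-GFP OSKM#2) and -1.10 (KH2_OSKM). In the SNEL lines it was 1.70 (Nanog-GFP SNEL#3), 1.59 (Nanog-GFP SNEL#2) and -0.54 (Oct4-GFP SNEL#1). In KH2, Nanog-GFP and Oct4-GFP ESCs it was 0.49, 0.21 and 0.22. The 8 detected lines and the 2 undetected ones did not overlap, and the 2 arrays of a line differed by at most 0.47. The highest line was at least 162-fold above the lowest, counting the lowest at its background floor (adjusted p = 1.41e-11 in limma's F test). All 6 reverse members of the interval passed. Their median correlation with each other over the 10 lines was 0.99. The nearest gene probe, for 9330199G10Rik, lay 59767 bp away and did not follow it (r = -0.20).

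In locus 2 the reverse probe A_30_P01030974 was off in the same 2 lines, at -7.71 in Nanog-GFP OSKM#2 and -7.65 in BC_2 OSKM. It was -1.09 in Oct4-GFP OSKM#2 and -1.78 in KH2_OSKM. It was 1.28, 0.17 and -1.47 in Nanog-GFP SNEL#3, Nanog-GFP SNEL#2 and Oct4-GFP SNEL#1. It was -0.61, -0.97 and -0.46 in KH2, Nanog-GFP and Oct4-GFP ESCs. The highest line was at least 122-fold above the lowest (adjusted p = 1.53e-11, limma). Of the interval's reverse members 5 of 6 passed, and of its forward members 2 of 3. The forward probe A_30_P01022071 showed the same order, from -7.77 and -7.68 in the 2 lines without signal to 0.91 and 1.08 in Nanog-GFP SNEL#3 and Nanog-GFP SNEL#2 (at least 105-fold, adjusted p = 4.34e-11, limma). Among all probes outside its own interval and strand, the one most like A_30_P01024282 of locus 1 over the 10 lines was A_30_P01030974 of locus 2 (r = 0.996), followed by A_30_P01021308 (r = 0.993) and A_30_P01022071 (r = 0.991) of the same locus. The 10 points share arrays, so these r are descriptions. With normexp in place of the scanner's background correction, the measured ranges of A_30_P01024282, A_30_P01030974 and A_30_P01022071 were 40-fold, 30.5-fold and 27.9-fold, and they were 87.3-fold, 58.5-fold and 47.4-fold in the authors' deposited table. Not every member of these names was off in Nanog-GFP OSKM#2 and BC_2 OSKM. In locus 1, 3 of the 6 reverse members were above background on no array of either line, while A_30_P01020701 was on 2 and 1 arrays and, at -4.42 in the former and lower in the latter, lay below the -1.84 to 0.62 of the other 8 lines. In locus 2, 4 of the 6 reverse and all 3 forward members were on no array of either line, and the reverse members A_30_P01025810 and A_30_P01021443 were above background on all 20 arrays. The 2 lines are of different grades, poor and good, and both were made with OSKM; for the 3 probes above, the other OSKM lines had signal.

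On chromosome 17, overlapping intervals on the reverse strand split the lines in another way. Probe A_30_P01030657 of chr17:22335458-22466521_R, which holds a probe of the predicted gene Gm4944 on its strand, was -1.69 in Nanog-GFP OSKM#2 and -2.28 in KH2_OSKM. In the ESC lines it was -1.51 (KH2), -2.30 (Nanog-GFP) and -2.12 (Oct4-GFP). It was above background on no array of Oct4-GFP OSKM#2 (-7.98), BC_2 OSKM (-7.56), Nanog-GFP SNEL#3 (-6.21), Nanog-GFP SNEL#2 (-6.86) and Oct4-GFP SNEL#1 (-6.97). The 5 lines on and the 5 lines off did not overlap, with at least 32.5-fold between the ends (adjusted p = 2.21e-08, limma), and all 3 members of this name passed. A second probe, A_30_P01031943 of chr17:22420025-22457650_R, was the most like it of all probes (r = 0.996) and had at least 10.9-fold. Next came Ubd on the same chromosome, which encodes a ubiquitin-like modifier (r = 0.993 with A_30_P01030657). Its level ran from -8.12 in Oct4-GFP OSKM#2 to 2.70 in Nanog-GFP OSKM#2. The third, A_30_P01033171 in the same stretch (r = 0.977), moved over a small range only, from -1.86 to -0.82. For A_30_P01030657 and A_30_P01031943, all 3 SNEL lines were among the lines without signal, together with 2 OSKM lines. The measured range of A_30_P01030657 was 5.26-fold with normexp and 9.39-fold in the authors' deposited table. The Gm4944 probe did not share its split and had r = 0.41 with A_30_P01030657. That gene probe was above background on all 20 arrays, from -3.54 in BC_2 OSKM to -1.83 in Nanog-GFP SNEL#3. Other members of the same names split the lines less sharply. A_30_P01027624 was above background on both arrays of Oct4-GFP OSKM#2 and on 1 array each of Nanog-GFP SNEL#2 and Oct4-GFP SNEL#1, A_30_P01020914 on 1 array of Oct4-GFP OSKM#2, and A_30_P01030119 on all 20 arrays.

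In the interval chr12:73789535-73799787_F, picked out after its values were seen, 1 of 4 members was off in 3 lines. This probe, A_30_P01029263, was above background on no array of Nanog-GFP OSKM#2 (-7.76), Oct4-GFP OSKM#2 (-8.30) and Oct4-GFP SNEL#1 (-7.51). It was -3.10 in KH2_OSKM, -1.43 in BC_2 OSKM, -2.70 in Nanog-GFP SNEL#3 and -2.82 in Nanog-GFP SNEL#2. In the ESC lines it was -3.51 (KH2), -2.63 (Nanog-GFP) and -3.09 (Oct4-GFP). The difference from the highest to the lowest line was at least 34.4-fold (adjusted p = 3.74e-07, limma), and all 4 members of the name passed. On the measured levels the range was 6.85-fold with normexp and 12.2-fold in the authors' deposited table. Of the other members, A_30_P01019971 and A_30_P01023490 were above background on both arrays of all 10 lines. A_30_P01024716 was detected less in the same 3 lines. It was on 1 array each of Nanog-GFP OSKM#2 and Oct4-GFP OSKM#2, on 0 of Oct4-GFP SNEL#1 and on both arrays of every other line. For A_30_P01029263 the arrays of Oct4-GFP SNEL#1 differed most, by 1.93, with neither above background.

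The remaining members with the smallest p-values were on in nearly all lines and graded. At chr11:87841800-87858725_R, 19304 bp from the splicing factor gene Srsf1 and on its opposite strand, A_30_P01017468 ran from -4.05 in Nanog-GFP SNEL#3 and -3.17 in Nanog-GFP SNEL#2 to 0.60 in BC_2 OSKM, 25-fold in all (adjusted p = 5.45e-11, limma). Srsf1 itself ran the other way, with its highest levels in Nanog-GFP SNEL#3 (5.11) and KH2 ESCs (4.99) and r = -0.86 over the lines. At chr4:146889650-146904300_F, beside the zinc finger gene Zfp982, A_30_P01020378 was highest in Nanog-GFP OSKM#2 (1.34) and Oct4-GFP OSKM#2 (0.54) and lowest in KH2_OSKM (-1.82) and BC_2 OSKM (-1.81), 8.89-fold (adjusted p = 8.57e-11, limma). Its neighbour A_30_P01020616 gave 13.3-fold in the same order of ends, and the r with Zfp982 was 0.85 and 0.89. At chr18:3003075-3016150_R, A_30_P01022919 was bright in every line, from 2.04 in KH2_OSKM to 5.14 in Nanog-GFP OSKM#2 (8.57-fold), and A_30_P01023020 gave 9.02-fold. The 2 arrays of a line differed by at most 0.27 for these 4 probes of chromosomes 4 and 18. All 3 members of chr5:105032961-105037248_F, picked out after their values were seen, also passed. Of them A_30_P01028949 was 0.40 and 0.55 in Nanog-GFP SNEL#3 and Nanog-GFP SNEL#2 and between -5.03 and -2.24 in the other lines, 47.8-fold from end to end (adjusted p = 4.65e-10, limma).

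Among the members on all 20 arrays, where no value lay below background, the largest SD of line levels was 1.44. It belonged to chr15:98842850-98853100_F, with levels of -2.95 in BC_2 OSKM, -2.53 in Nanog-GFP SNEL#3 and -2.47 in Nanog-GFP SNEL#2, and between -0.27 and 1.22 in the other 7 lines (18-fold). The probe of chr15:96984422-97000322_R ran from -4.71 in Nanog-GFP ESCs to -0.62 in Oct4-GFP OSKM#2 (17.1-fold), and the 3 ESC lines and Nanog-GFP SNEL#2 were its 4 lowest lines. That of chr1:87343550-87362900_F ran from -4.27 in Oct4-GFP ESCs to -0.30 in Oct4-GFP SNEL#1 (15.7-fold). The probe of chr1:63319842-63349796_F lies 28 bp from a probe of Zdbf2, a paternally expressed imprinted gene, on the same strand. It was -0.35, -0.19, -3.10 and -4.47 in Nanog-GFP OSKM#2, Oct4-GFP OSKM#2, KH2_OSKM and BC_2 OSKM and -1.81, -1.31 and -2.03 in the SNEL lines. In the ESC lines it was -0.17, -0.90 and -0.59, and the r with Zdbf2 was 0.99. The probe of chr17:15368546-15377747_R, inside an interval that holds Gm5091, ran from -3.35 in Oct4-GFP ESCs to 0.91 in Nanog-GFP OSKM#2 (19.2-fold). At the other end, the smallest SD on 20 arrays was 0.07. The probe of chr12:21584725-21595050_R stayed between 3.11 and 3.34 in all 10 lines, and that of chr9:65376063-65390480_R between 1.51 and 1.76. The other 3 probes of smallest SD, at chr13:65716675-65765575_F, chr5:124694137-124695689_R and chr11:6421951-6429173_R, varied by 1.16 to 1.20-fold.

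Probes of 1 name were not alike in every interval. Of the 3424 names, 1157 had 1 member and 2267 had several, and the median r between members of 1 name over the 10 lines was 0.40. In the 357 names whose members all passed the line test it was 0.94, and in the 1078 names with none past it 0.20. Members of a name share arrays and a stated transcript, and are not replicates of a line.

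Strand was examined in the intervals probed on both strands, 966 of 3160. In 782 of these (81%) both strands had a member, in 152 only 1 strand did and in 32 neither. The share depends on the detection required: with 1 array required, 929 intervals had both strands above background, with 10 arrays 663, and with all 20 arrays 311 (32.2%), while 425 then had 1 strand only. Over the 782 intervals the median r between the mean forward and the mean reverse level was 0.29 (quartiles -0.04 and 0.58). Members past the line test lay on both strands in 164 intervals, on 1 strand in 361 and on neither in 257. In the 164 the median r was 0.53, with 83 above 0.5 and 34 below 0. Every one of the 8632 members with a position in the files lay on the strand its name gives.

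A probe pair that reads the same bases on opposite strands is a closer comparison, since both probes share position over their overlap. The rest of each probe, where there is any, reads other bases. In all, 1569 opposite-strand pairs overlapped by at least 30 bases, and in 1560 the overlap was exactly complementary in the printed sequences. Both probes were members in 605 pairs, 1 probe in 702 and neither in 262. In 54 pairs 1 strand was above background on 20 arrays and the other on 0, and in 108 pairs both were on 20 arrays. Over pairs with both probes as members the median r was 0.17. Both passed the line test in 55 pairs, with a median r of 0.79, 43 pairs above 0.5 and 5 below 0, and 1 passed in 225 pairs.

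The printed pairs show each case. At chr14:67585234-67596823 the probes are complementary over all 60 bases. The forward probe A_30_P01028444 was on 20 arrays with levels of 2.83 to 3.42, and the reverse probe A_30_P01024021 was on 0 arrays. A pair at chr5:96591892-96606467 (41 bases) had its forward probe A_30_P01027478 at 6.67 to 7.14 and its reverse probe on 0 arrays. A reverse probe on chromosome 17, A_30_P01025369, was at 7.46 to 7.75 while the probe for 52 of its bases on the forward strand was on 0 arrays. In these 3 stretches no array of any line was above background on the second strand. Among the variable probes above, the forward partner of A_30_P01024282 (44 bases) and the reverse partner of A_30_P01022071 (34 bases) in the chromosome 13 loci were on 3 and 0 arrays. Locus 2 had members on both strands elsewhere in the interval, and locus 1 had the forward member A_30_P01025472. This member was above background on both arrays of Nanog-GFP SNEL#2 and Oct4-GFP ESCs. It was on 1 array each of Oct4-GFP OSKM#2 and Nanog-GFP SNEL#3 and on no array of the other lines. The forward partner of the reverse probe A_30_P01029779 in locus 2 (56 bases) was on 0 arrays too, and the reverse partner of A_30_P01029263 in the chromosome 12 interval on 1.

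Other pairs were on for both strands. At chr17:35080914-35090009 (54 bases) both probes were on 20 arrays. Forward A_30_P01031189 ran from -3.59 in BC_2 OSKM to -1.34 in Nanog-GFP SNEL#3. Reverse A_30_P01017723 ran from 1.58 to 3.57 with the same lines at its ends, and r was 0.96. At chr7:6210340-6229115 (40 bases) r was 0.98, with both strands highest in Nanog-GFP SNEL#3 (-0.55 forward and -2.32 reverse). At chr9:68349343-68411643 (53 bases) the forward probe A_30_P01033149 was 0.80, 0.20 and 0.17 in Nanog-GFP SNEL#3, BC_2 OSKM and Nanog-GFP SNEL#2, -1.83 in Oct4-GFP SNEL#1 and -0.77 to -0.46 in the ESC lines. In the poor lines it was -3.76, -2.51 and -4.80. The reverse probe A_30_P01030724 followed it (r = 0.90) at levels near background, from -7.61 to -4.49. The opposite case was chr5:35975265-35982561 (34 bases), with r = -0.67. Its forward probe A_30_P01024606 was highest in KH2_OSKM (3.09) and lowest in Oct4-GFP ESCs (0.69), and its reverse probe A_30_P01032382 was lowest in KH2_OSKM (2.62) and highest in Nanog-GFP SNEL#3 (3.33). Both passed the line test (adjusted p = 1.11e-06 and 8.38e-05, limma). The levels of the 2 probes of a pair were not set against each other, since probes differ in brightness for equal RNA.

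Over whole intervals, the highest forward-to-reverse r were 0.99 at chr13:31736054-31781679, 0.98 at chr15:96984422-97000322 and chr12:56607657-56613582 (beside Nfkbia, the inhibitor of NF-kappaB), 0.97 at chr5:74487385-74497428 and 0.94 at chr4:131734714-131742542 (beside Ythdf2, a reader of methylated RNA). The lowest were -0.85 at chr2:168606645-168621395, -0.81 at chr11:104304424-104329824, -0.78 at chr10:120336296-120354471, -0.72 at chr3:34643323-34682773 and -0.68 at chr12:12768528-12849976. Members past the line test lay on both strands in each of the 5 highest. In the 5 lowest they lay on 1 strand or on neither. At chr10:120336296-120354471, for one, the 4 reverse members all passed, with A_30_P01030979 at least 8.91-fold higher in BC_2 OSKM (-2.61) than in KH2 ESCs, while the forward member on the strand of Gm4473 did not (adjusted p = 0.0739, limma).

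Neighbouring genes were taken from the positions of the other probes in the files, among those that passed the filter. The 8632 members with a position lay a median of 13990 bp from the nearest gene probe. In 527 names a gene probe lay inside the interval on the same strand and in 322 only on the opposite strand, and in 2575 names no gene probe lay inside. The share of members past the line test was 44.3% within 5 kb of a gene probe, 31.6% at 5 to 50 kb and 26.4% beyond. Members near a gene were detected on slightly more arrays, a median of 19 within 5 kb and 17 beyond 50 kb.

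The likeness of a member to its nearest gene was highest at short distance. The median r over the 10 lines was 0.41 for the 2667 members within 5 kb, 0.14 at 5 to 50 kb and 0.07 beyond. Pairs of neighbouring genes gave 0.25, 0.16 and 0.07 at the same distances. Within 5 kb the median r was 0.56 for 1506 members on the gene's strand and 0.24 for 1161 on the opposite strand, where pairs of genes gave 0.43 and 0.16. Among the same-strand members within 5 kb that passed the line test, it was 0.79. These r come from 10 lines on shared arrays and share normalization. Gene and exon boundaries of mm9 were not used here, so members inside and outside the gene's own transcript were not told apart.

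The members closest to a neighbour in pattern had r of 1.00 after rounding. They were A_30_P01020357 with Dancr, A_30_P01028918 with 2410124H12Rik, A_30_P01020188 with Mroh4, A_30_P01020491 with Catsperd and A_30_P01031307 with Mir17hg, the host transcript of a microRNA cluster known for driving proliferation. All 5 lay on their gene's strand. The distance to the gene probe was 0 bp for Dancr, 2410124H12Rik and Catsperd, 37 bp for Mir17hg and 539 bp for Mroh4. Whether they read the gene's own transcript was not tested, so these r do not show separate RNAs that follow a neighbour. The Mroh4 member ran from -2.71 in Nanog-GFP OSKM#2 to 0.90 in Nanog-GFP SNEL#2 (12.2-fold). The Mir17hg member was highest in Nanog-GFP SNEL#3 (2.36) and Nanog-GFP SNEL#2 (2.11) and lowest in KH2_OSKM (-0.11). The lowest r within 5 kb were -0.82 with Usp12 and 4930547M16Rik, -0.81 with Gm11539, -0.79 with Hif1an and -0.78 with Gm2503. Of these 5 members only that of Hif1an, a hydroxylase that restrains HIF, passed the line test (adjusted p = 4.32e-05, limma). Its probe at chr19:44653017-44654777_F ran from -4.26 in KH2 ESCs to -2.97 in BC_2 OSKM.

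Members near known noncoding RNAs were followed as a group. Of 162 members whose nearest gene within 50 kb was on a list of named noncoding RNAs (13 genes), 99 (61.1%) passed the line test and the median r was 0.66. Over all 6873 members within 50 kb of any gene, 36.5% passed and the median r was 0.23, but the listed members lay closer to their genes. Under 5 kb on the gene's strand, 45 of 55 (81.8%) passed with a median r of 0.87, where all members of that class gave 54.9% and 0.56. Under 5 kb on the opposite strand it was 33 of 55 (60%) and 0.65 against 30.6% and 0.24. From 5 to 50 kb it was 18 of 38 (47.4%) against 35.5% on the same strand and 3 of 14 (21.4%) against 26.9% on the opposite one. Dancr, known for holding progenitor cells back from differentiation, had 22 members and 21 passed (median r 0.92). At chr5:74487385-74497428_F the probe A_30_P01020357 was 3.24, 3.88, 1.85 and 2.18 in Nanog-GFP OSKM#2, Oct4-GFP OSKM#2, KH2_OSKM and BC_2 OSKM. It was 4.37, 4.47 and 3.20 in Nanog-GFP SNEL#3, Nanog-GFP SNEL#2 and Oct4-GFP SNEL#1. It was 3.42, 2.72 and 3.48 in the ESC lines, 6.16-fold from end to end (adjusted p = 5.25e-10, limma). The probe of Dancr itself gave 1.81 in KH2_OSKM and 4.47 in Nanog-GFP SNEL#2. Of this interval's members 10 of 10 forward and 8 of 9 reverse passed.

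Malat1, an abundant RNA of nuclear speckles, had 9 of 10 members past the test (median r 0.78), and A_30_P01028538 was highest in Nanog-GFP SNEL#3 (3.67) and lowest in Oct4-GFP OSKM#2 (1.72). Tug1 had 10 of 12, Gas5 10 of 15, Dleu2 10 of 19, Mir17hg 9 of 22, Pvt1 8 of 17 and Neat1, the scaffold of paraspeckles, 7 of 15. Their median r were 0.81, 0.68, 0.22, 0.33, 0.80 and 0.13. Norad had 3 of 3 and 1700020I14Rik 6 of 8, Snhg3 had 2 of 4, and Terc, the template RNA of telomerase, had 1 of 7. The members that passed were split in both. Of the 7 that passed near Neat1, 4 had r over 0.6 with it and 3 had r below 0 (-0.37 to 0.89), and of the 10 near Dleu2, 6 had r over 0.6 (-0.13 to 0.89).

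Among pluripotency genes, 90 members had 1 of 6 listed genes as the nearest within 50 kb, and 41 (45.6%) passed, with a median r of 0.26. Over all members within 50 kb of any gene it was 36.5% and 0.23. Under 5 kb, 7 of 9 (77.8%, all near 1 gene) passed on the gene's strand, against 54.9% of all members of that class. On the opposite strand 3 of 9 (33.3%) passed against 30.6%. From 5 to 50 kb it was 19 of 37 (51.4%) against 35.5% on the same strand and 12 of 35 (34.3%) against 26.9% on the opposite one. Tet1, which oxidises methylated cytosine in DNA, had 11 of 23 past the test and a median r of 0.66. The Tet1 probe was highest in Nanog-GFP SNEL#3 (4.93) and lowest in KH2_OSKM (3.41), and the opposite-strand member A_30_P01026290, 2639 bp away, followed it with r = 0.92 (adjusted p = 0.031, limma). Prdm14, a regulator of the naive state, had 7 of 8 members past the test with a median r of -0.42. Zfp281, a zinc finger factor that acts in the exit from the naive state, had 16 of 38 (median r 0.18). The 16 that passed were split, 8 with r over 0.6 and 8 with r below 0 (-0.62 to 0.90). The 5 forward members of chr1:138528250-138538250 closest to Zfp281 had r between -0.55 and -0.42 with it: A_30_P01019369 was highest in KH2_OSKM (-0.29) and BC_2 OSKM (-0.31) and lowest in Nanog-GFP SNEL#3 (-1.57). Klf5 had 4 of 12, Myc 2 of 3 and Klf4 1 of 6.

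Near developmental regulators, 14 of 40 members (35%) passed, close to the 36.5% of all members within 50 kb, and the median r was 0.25 over 9 genes. Pou3f1 had 0 of 8. Of the 5 members near the 2-cell-like gene Tdpoz3, 1 passed (20%, median r -0.18). No member had a fibroblast, primitive endoderm or trophoblast gene of the lists as its nearest gene within 50 kb.

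The grades and factor sets were compared over line means with limma, with p-values adjusted over all 38753 probes. The question is whether these RNAs set apart iPSC lines of different quality or origin. No member passed in any of the 6 comparisons. For poor lines against ESC lines 0 members passed, with 0% of all probes called, and the smallest adjusted p of a member was 0.208. For good against ESC lines and high against ESC lines the counts were 0 (0% of all probes), with smallest adjusted p of 0.641 and 0.872. For good and high against poor lines 0 passed (0% of all probes, smallest adjusted p = 0.755), and for all iPSC against ESC lines 0 (0% of all probes, smallest 0.257). For SNEL against OSKM lines 0 members passed, where 1 probe of all (0.00258%) was called, and the smallest adjusted p of a member was 0.203. Groups held 2 to 7 lines. The comparisons with ESC lines share the same 3 ESC lines, and are given side by side for that reason.

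At an unadjusted p under 0.05 (limma), more members were lower than higher in the first-named group of each comparison, and the same held for all probes. In poor lines against ESC lines 415 members (4.77%) were higher and 598 (6.87%) lower, where all probes gave 3.73% and 5.33%. In good lines against ESC lines the counts were 136 (1.56%) and 563 (6.47%), with 1.14% and 4.72% over all probes. In high lines against ESC lines they were 171 (1.97%) and 621 (7.14%), with 1.43% and 4.19%. In good and high against poor lines they were 87 (1%) and 498 (5.72%), with 1.25% and 4.13%. In SNEL against OSKM lines they were 382 (4.39%) and 465 (5.34%), with 3.76% and 5.66%, and in all iPSC against ESC lines 250 (2.87%) and 868 (9.98%), with 2.23% and 6.71%. The median difference over members was small, between -0.11 and -0.01, against -0.07 to -0.01 over all probes. Its sign depends on the scaling: in good lines against ESC lines it was -0.10, and 0.09 with normexp background correction, and in good and high against poor lines -0.08 and 0.10. Detection moved with the groups in the same direction, since both lines at 47.5% of members above background on both arrays are SNEL lines graded good or high. Its part in these counts was not tested.

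The members with the smallest p in each comparison are given as the leading candidates, none past the threshold. Groups that do not overlap go with this choice, and how many of all probes separate the groups was not counted. In poor lines the probe of chr14:47978277-47985238_F, A_30_P01030386, was -5.11, -4.95 and -5.08, in the good lines -6.89 and -6.51, in the high lines -7.29 and -6.58 and in the ESC lines -7.42, -7.03 and -6.90. The poor lines did not overlap the others, with 5 of 6 of their arrays above background and 0 of the ESC arrays. The difference was at least 2.14-fold to the ESC lines (adjusted p = 0.208, limma) and at least 1.06-fold to the good and high lines (adjusted p = 0.755, limma). The nearest gene, Lgals3, encodes a galectin and lies 22874 bp away (r = 0.07). At chr9:66976750-67014625_R the poor lines were -3.74 ± 0.01 (SD, n = 3) and the ESC lines -2.72 ± 0.21 (SD, n = 3), 2.03-fold lower. At chr7:129294166-129301366_F the poor lines were 2.34-fold higher, and within slide 1 this difference turned to -0.03.

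In good lines against ESC lines, one leading probe lay at chr18:38302523-38302756_R. There the good lines were -4.57 ± 0.52 (SD, n = 2) and the ESC lines -7.93 ± 0.17 (SD, n = 3), at least 3.06-fold higher (adjusted p = 0.641, limma). Only 2 of the 4 arrays of the good lines were above background, and the difference was 5.90 without replicate 1 of all lines and 0.82 without replicate 2. The same probe led the comparison of high against ESC lines (at least 2.35-fold higher, adjusted p = 0.872, limma), but there the difference was -0.04 without the 2 arrays that stood apart. In that comparison 5 of the 5 leading members turned in sign under at least 1 alternative.

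In good and high against poor lines, A_30_P01023168 of chr1:192484781-192485014_R was -4.95 ± 0.28 (SD, n = 4) against -3.52 ± 0.01 (SD, n = 3), 2.68-fold lower. A_30_P01030442 of chr16:9129538-9137898_F was on 0 of 8 arrays of the good and high lines and on 5 of 6 arrays of the poor lines, at least 2.49-fold lower. The chromosome 9 reverse probe A_30_P01030724 of chr9:68349343-68411643_R, shown with its sequence, was at least 1.65-fold higher. All 3 had an adjusted p of 0.755 (limma). Other members of chr16:9129538-9137898_F did not split the grades in this way. A_30_P01026173 and A_30_P01031570 were above background on 1 or 2 arrays of every good and high line. A_30_P01022163 was on 1 array of Oct4-GFP SNEL#1 and on 0 of KH2_OSKM, and A_30_P01018089 on 1 array of Nanog-GFP SNEL#3. SNEL against OSKM lines gave A_30_P01020175 of chr4:118723941-118757032_R, inside an interval that holds Gm12866. It was -5.76, -5.92 and -5.51 in the SNEL lines and -3.01, -4.16, -2.79 and -3.26 in the OSKM lines, and -4.14, -3.87 and -3.69 in the ESC lines. The ESC lines lay above all SNEL lines and within the range of the OSKM lines. The SNEL lines were 5.38-fold lower than the OSKM lines (adjusted p = 0.203, limma). In the other direction, A_30_P01030099 of chr10:94900849-94928059_F was -2.98 ± 0.38 (SD, n = 3) in SNEL and -4.77 ± 0.56 (SD, n = 4) in OSKM lines, 3.47-fold higher (adjusted p = 0.498, limma).

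For all iPSC against ESC lines the 5 leading members were all lower in iPSC lines, by 1.61-fold to 2.77-fold (adjusted p = 0.257 each, limma). Their 7 iPSC and 3 ESC lines did not overlap, which goes with the choice by smallest p and adds no support. The bright one among them, A_30_P01032874 of chr13:28537223-28539860_R, was -0.22, -0.27, -0.55 and -0.37 in the OSKM lines, -0.47, -0.21 and -0.45 in the SNEL lines and 0.32, 0.23 and 0.42 in the ESC lines. A_30_P01020926 of chr3:60292527-60292880_R, above background on 20 arrays, was -2.70 to -2.10 in the iPSC lines and -1.67 to -1.40 in the ESC lines, 1.98-fold lower. These counts change without Oct4-GFP SNEL#1, a line whose arrays stood apart: 18 members then passed here, and 63 for SNEL against OSKM lines. The share over all probes was not taken without this line, so the 2 counts do not set the members apart. Levels of marker genes of other cell types, as the mean over each list, also differed between lines. Fibroblast genes (22 of 24 measured) ran from -2.30 to -0.12 in the iPSC lines and from -0.57 to 0.05 in the ESC lines. The 2-cell-like genes (12 of 19 measured) ran from -3.45 to 0.65 and from -3.34 to -1.48. Their part in these differences was not tested.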

How the data were processed

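Each line was measured on 2 one-colour arrays of total RNA, and the scanner files were the starting point. Per the file headers, Feature Extraction 10.1.1.1 made the deposited intensity values (array design probes with mm9 positions), subtracting local background and detrending each array. The authors' deposited table holds log2 values normalised between arrays by a method not given in the sources used here, and served as an alternative; the submitters' processing notes name limma without a version. Here spots marked as outliers were set to missing, repeated spots averaged and log2 signals centred on the array's 75th percentile. The 38753 probes with a signal well above background on 4 or more of the 20 arrays entered limma 3.58.1 (R 4.3.3), by probe, on the 20 arrays for differences between lines and on 10 line means for 6 comparisons, with Benjamini-Hochberg adjustment at 0.05. The tests were checked on simulated data. Gene names came from the files, updated by accession through RefSeq genes (26413 probes); coordinates are mm9 as deposited. The named members were, per comparison, those past the threshold or the 5 of smallest p, and in the line test the 10 of smallest p and 5 of largest SD. They also include the 5 highest and lowest r between strands and to genes within 5 kb, members within 50 kb of listed genes (at most 15 by distance), the 5 most and least variable members on 20 arrays, and the 3 most like probes. Some of the members these rules name are not reported here. Members, lists and rules were chosen with earlier results of these data known. A fold against a group with no array above background uses the lowest signal well above background on each array and is written as at least. The number of arrays limits the precision. Alternatives were the background correction, normalisation, deposited table, filter, probe choice, slide and replicate blocks, and left-out arrays and lines.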

Additional observations from a re-analysis of the deposited data

How the results depend on the processing

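The 0 members called in each comparison changed as follows. For these comparisons the share over all probes was not taken under the alternatives, so the counts do not set the members apart. With the replicate number as a block 2 passed for poor against ESC lines, 4 for SNEL against OSKM lines and 4 for all iPSC against ESC lines, and on the 20 arrays without a block or slide term 3, 9 and 4. The r of replicate 1 deviations over 45 pairs of lines ran from -0.13 to 0.45 (median 0.19, over 0.1 in 28 pairs), so the pairing by number holds for some pairs of lines and not for others, and replicate number goes partly with slide. Treating arrays as replicates counts each line 2 times. Quantile normalization gave 1 for good and high against poor lines and 2 for SNEL against OSKM lines. Without replicate 1 of all lines, 1 passed for good against ESC lines, and 5 without KH2_OSKM replicate 1 and Oct4-GFP SNEL#1 replicate 1, a setting chosen after seeing the data. Leaving out 1 line gave 0 to 63 for SNEL against OSKM lines (63 without Oct4-GFP SNEL#1, 4 without Oct4-GFP OSKM#2) and 0 to 18 for all iPSC against ESC lines (18 without Oct4-GFP SNEL#1); it gave 0 to 0 in the other 4. Between lines, 2994 members became 2782 to 3312 without 1 line, 3260 with the replicate block, 3207 with slide as a block, and 1083 of the 3424 names on their brightest probe. The 379 members with over 8-fold became 302 to 361 without 1 line, 27 with normexp, 66 in the deposited table, 97 on the brightest probe and 226 with values raised to the background floor. The 782 intervals with both strands became 311 at 20 arrays. The median r of 0.41 to a gene within 5 kb became 0.37 in the deposited table, 0.46 at 10 arrays or more, and 0.39 to 0.43 without 1 line. The cause of these changes was not tested.

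All 12 members named in the line test passed in all 221 alternative values. Of 698 alternative values of the 30 named in comparisons, 674 kept their direction without passing, 9 passed and 15 turned. The last were chr7:129294166-129301366_F, poor against ESC lines, within slide 1 (-0.03). For high against ESC lines they were chr18:38302523-38302756_R within slide 3 (-0.02) and without the 2 arrays (-0.04, and 0.47 to 5.49 without 1 replicate number), chr9:34195675-34196336_R without them (0.39, and -1.12 to -0.80), chr3:37797734-37891650_F without 1 replicate number (-2.12 to 0.07) and within slides 2 and 3 (0.02 and 0.25), chr17:44503516-44504852_R within slide 3 (-0.29) and without the 2 arrays (-0.14, and 0.18 to 2.63), and chr3:78982395-79094345_F without 1 replicate number (-0.06 to 2.43), within slide 1 (-0.40) and without the 2 arrays (-0.90). For SNEL against OSKM lines chr18:77291264-77299664_F turned with normexp (0.01), without 1 replicate number (-1.38 to 0.02) and without the 2 arrays (0.12). Levels near background limit the members, since 3537 of 8701 were above it on all arrays.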

Other observations

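Other intervals with wide ranges, named after their values were seen, split the lines in further ways. At chr3:93150619-93184368_R all 5 members passed limma's test between lines. A_30_P01028851 was above background on both arrays of KH2_OSKM (-4.42), BC_2 OSKM (-3.23) and the 3 ESC lines (-3.67, -4.43 and -3.07) and on no array of the other 5 lines (-7.65 to -5.58). At chr1:53215418-53244461_R, A_30_P01017929 lay 5 bp from 1700019A02Rik on the same strand and followed it with r = 0.98. It was highest in BC_2 OSKM (-0.94), Nanog-GFP SNEL#2 (-2.80) and Nanog-GFP SNEL#3 (-3.40) and was at -6.74 in Oct4-GFP SNEL#1, at least 19.8-fold lower. Dixon's test for 1 line far from the rest was run 33 times on named members and line summaries, and none was found. It used the 7 iPSC, the 4 OSKM or the 4 good and high lines, and smaller groups were not tested. Lines that stand apart together can be missed by it.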
